A study of Mus musculus with 12 samples.

Results

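Rab GTPases are small GTP-binding proteins that sit on particular membranes of the cell and steer the budding, transport and fusion of vesicles. The genes described here are the 58 rows, of 23845 in the deposited gene tables, whose symbol is Rab followed by a number and at most a further letter and digit. Each Rab cycles between an active form bound to GTP, which recruits effectors such as tethers and motors, and an inactive form bound to GDP. Exchange factors (GEFs) switch Rabs on, GTPase-activating proteins (GAPs) switch them off, and GDP dissociation inhibitors carry them between membranes. In neurons a subset of Rabs serves synaptic vesicle release, and in macrophages and microglia other Rabs serve phagosome maturation, recycling of receptors and secretion.

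Gene expression was measured by poly(A) RNA sequencing of microglia, the resident macrophages of the brain, which were isolated with Percoll gradients. All mice were C57BL6/J and 3 to 4 months old. The 12 libraries form 4 groups of 3, and each library came from 1 animal. WT-LPS animals were wild type and were injected with lipopolysaccharide (LPS), a component of the bacterial outer membrane, and WT animals were wild type without LPS. CPEB1-KO-LPS animals carried the CPEB1 knockout and were injected with LPS, and CPEB1-KO animals carried the knockout without LPS. The LPS groups were taken 24 h after injection. CPEB1 is an RNA-binding protein that acts on the poly(A) tail and the translation of its target mRNAs. The design of the knockout allele, the LPS dose and the sex of the mice are not given in the labels used. Nor do they say whether the animals without LPS, called untreated here, received a control injection. The questions addressed here are which Rabs followed LPS, which followed the level of the neuronal marker Snap25, and whether any differed between genotypes.

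The libraries held between 5.02 M and 13.5 M expected counts. Cpeb1, the gene labelled as knocked out, was listed at 17.6, 26.4 and 21.3 TPM in CPEB1-KO, against 19.95, 15.5 and 43.3 TPM in WT. Its log2 difference was -0.58 ± 0.31 (SE), with an adjusted p of 0.334 in edgeR's quasi-likelihood test, so transcript level alone did not separate the labels. The 10 microglia markers were detected, with summed levels of 978 to 4523 TPM in WT-LPS, 5604 to 6501 TPM in WT, 719 to 2868 TPM in CPEB1-KO-LPS and 2717 to 4260 TPM in CPEB1-KO. The 12 neuron markers were also detected, with sums of 2838 to 7652 TPM in WT-LPS, 1828 to 5022 TPM in WT, 3108 to 5608 TPM in CPEB1-KO-LPS and 4656 to 6588 TPM in CPEB1-KO. The libraries thus held transcripts of neurons as well as of microglia.

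Snap25, a core protein of synaptic vesicle fusion, was listed at 2439.8, 686 and 783 TPM in WT-LPS, 1457, 576 and 572 TPM in WT, 1579, 1809 and 853 TPM in CPEB1-KO-LPS and 1405, 2091 and 2208 TPM in CPEB1-KO. Replicate 1 was by far the highest library in WT-LPS and in WT, and replicate 3 was the lowest of CPEB1-KO-LPS. The ranges of the 4 groups overlapped, and WT replicates 2 and 3 were the lowest libraries. In two-sided exact permutation tests on the 3 libraries of each group, p was 0.5 for WT-LPS against WT, 0.3 for CPEB1-KO-LPS against CPEB1-KO, 0.2 for CPEB1-KO against WT and 0.8 for CPEB1-KO-LPS against WT-LPS. The smallest p that 3 against 3 allows is 0.1.

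Together the Rabs made up between 0.212% and 0.505% of all TPM in a library. In a list of Rabs of regulated secretion, Rab3a, the main Rab of synaptic vesicles, was the most abundant of all Rabs, with a mean of 617 TPM over the 12 libraries and a range of 159 to 1028 TPM. Rab3c and Rab26 followed in that list, at means of 31.5 and 27.8 TPM. Among the early endosome Rabs the highest means were 218 TPM for Rab5c, which drives fusion of early endosomes, 141 TPM for Rab4b, which returns cargo from early endosomes to the surface, and 102 TPM for Rab5a. Among recycling and exocytic Rabs they were 123 TPM for Rab14, 92.4 TPM for Rab12 and 83.4 TPM for Rab15. Rab7, the Rab of late endosomes and lysosomes, had a mean of 245 TPM, followed in its list by Rab24 at 70.8 TPM and Rab34 at 39.8 TPM. Of the Rabs of the endoplasmic reticulum (ER) and Golgi apparatus, Rab2a had a mean of 218 TPM, Rab6a one of 166 TPM and Rab1b one of 143 TPM. Of the remaining Rabs the highest were Rab28 at 58.0 TPM, Rab40c at 44.8 TPM and Rab40b at 22.6 TPM.

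The least abundant Rab was Rab17, an epithelial Rab, which had 4 counts over the 12 libraries. Rab17, Rab25, Rab38 and Rab42 did not pass the filter on low counts, so 54 of the 58 Rabs were tested, among 15295 genes. Each test was edgeR's quasi-likelihood test on the expected counts, and a gene is said to have changed where its p, adjusted by Benjamini and Hochberg over all genes of the comparison (FDR), was under 0.05. In the GENCODE annotation of GRCm38 (mm10), exons of 12 Rabs share bases with exons of another gene: that gene lies on the opposite strand of Rab3a, Rab3b, Rab6a, Rab2b, Rab20, Rab24, Rab5a, Rab7, Rab10 and Rab22a and on the same strand of Rab26 and Rab4b. Whether the counting used strand is not stated, so reads of those pairs cannot be told apart.

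**Figure D1:**
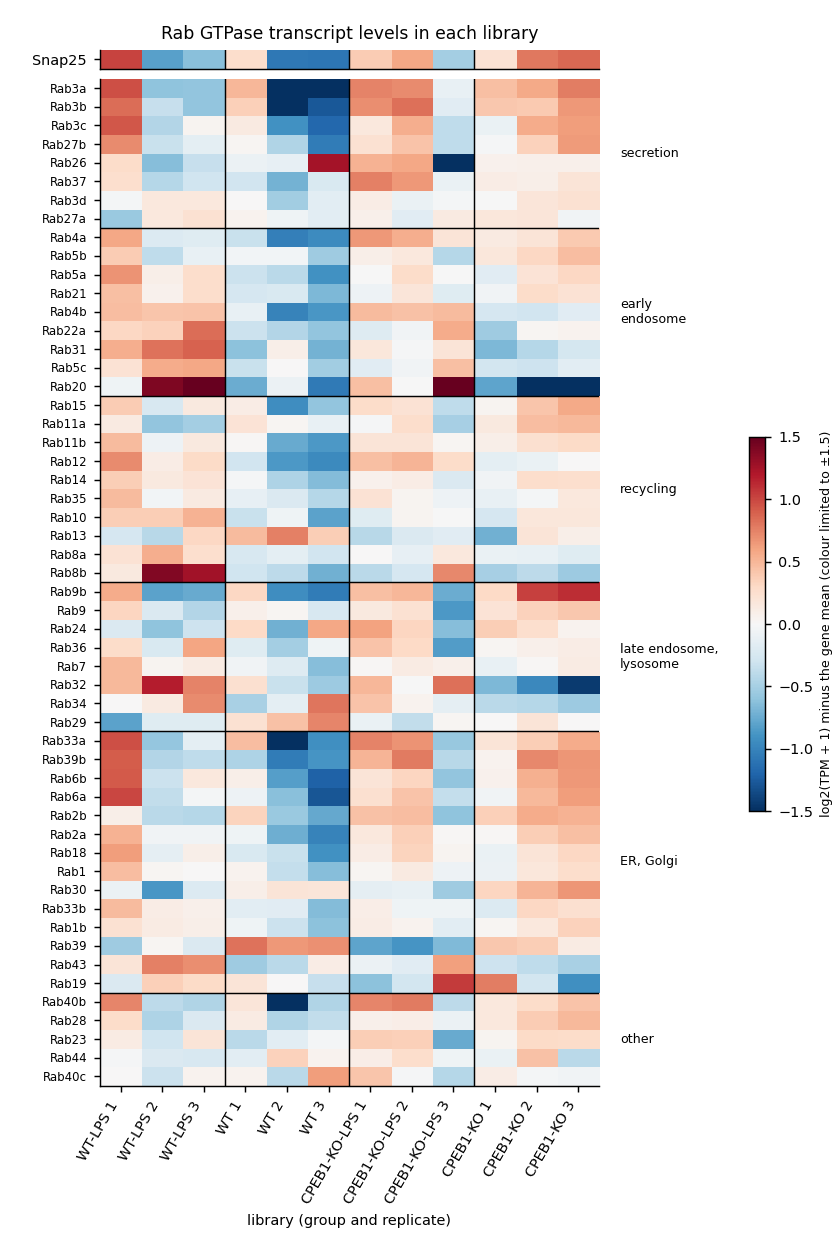
Level of each of the 54 tested Rabs in each library, as log2(TPM + 1) minus the mean of that gene over the 12 libraries, with rows grouped by role and Snap25 on top. Colour runs from blue (below the gene's mean) to red (above it) and is limited to ±1.5. Rab3a, Rab3b, Rab3c and Rab27b follow the Snap25 row, while Rab20 and Rab8b are reddest in replicates 2 and 3 of WT-LPS and replicate 3 of CPEB1-KO-LPS.

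To describe Rabs that followed the neuronal marker beside those that followed LPS, a slope on log2(Snap25 TPM) was fitted beside the 4 group means. This slope uses only differences between libraries of the same group and therefore none of the contrasts between groups. Within groups, Snap25 ran largely with total counts. In WT-LPS, WT and CPEB1-KO-LPS the library with the highest Snap25 also held the most counts. In CPEB1-KO, replicate 1 was lowest in both, while replicate 2 held the most counts and replicate 3 the most Snap25. The slope therefore cannot tell Snap25 level from depth, and the part of depth was not tested. A slope of 1 means that the scaled counts of a gene change in proportion to Snap25 TPM. Of the 54 Rabs tested, 13 had a positive slope and 5 a negative slope past the threshold, against 9.21% of all genes with a positive and 8.24% with a negative slope. Snap25 itself, fitted on its counts, had a slope of 0.85 ± 0.11 (SE), so a gene that kept pace with Snap25 counts would have a slope near 0.85 rather than 1. Of the other 11 neuron markers, 8 had a positive slope past the threshold, and of the 10 microglia markers, 8 had a negative one. Fewer neurons and less RNA per neuron cannot be told apart in bulk libraries.

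The Rabs with a positive slope were mostly those known from neurons. A list of 10 neuron-enriched Rabs by textbook knowledge had 9 members past the threshold, and the exception was Rab26, a Rab of synaptic vesicle autophagy, with a slope of 0.27 ± 0.29. The list was chosen with earlier results of these data known, so its overlap with the slopes is no separate support. By role, the 13 comprised 4 of 8 tested secretion Rabs (Rab3a, Rab3b, Rab3c and Rab27b), 1 of 9 early endosome Rabs (Rab4a), 1 of 10 recycling Rabs (Rab15), 1 of 8 late endosome Rabs (Rab9b), 5 of 14 ER and Golgi Rabs (Rab33a, Rab6b, Rab6a, Rab39b and Rab2b) and Rab40b.

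Rab9b, a paralogue of the late endosome Rab9 at chrX:136858147-136868755 (GRCm38, minus strand), was listed at 9.83, 3.22 and 3.35 TPM in WT-LPS, 8.11, 2.86 and 2.56 TPM in WT, 9.06, 9.35 and 3.39 TPM in CPEB1-KO-LPS and 8.04, 13.9 and 14.8 TPM in CPEB1-KO. It was high in the libraries with high Snap25 and low in replicates 2 and 3 of WT-LPS and WT and in replicate 3 of CPEB1-KO-LPS, where Snap25 was low. Its slope of 0.94 ± 0.11 had the smallest adjusted p of the Rabs (0.000961).

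Rab3a, at chr8:70754679-70758677 (GRCm38, plus strand), was listed at 1028, 347 and 348 TPM in WT-LPS, 743, 159 and 165 TPM in WT, 879.8, 862 and 487 TPM in CPEB1-KO-LPS and 717, 779 and 892 TPM in CPEB1-KO. WT replicates 2 and 3 were the lowest and WT-LPS replicate 1 the highest, so that in WT and in WT-LPS the spread within the group was larger than the difference between the groups. Its slope was 0.91 ± 0.14 (adjusted p = 0.00221). Rab3b, a second Rab3 isoform, had a slope of 0.84 ± 0.14 (adjusted p = 0.00329) and was listed at 26.6, 11.2 and 9.24 TPM in WT-LPS, 18.7, 3.51 and 5.37 TPM in WT, 24, 26.4 and 12.7 TPM in CPEB1-KO-LPS and 19.4, 19.3 and 23.3 TPM in CPEB1-KO. Its order of libraries within WT and WT-LPS was led by replicate 1, as that of Rab3a was. Rab3c had a slope of 0.65 ± 0.11 (adjusted p = 0.00288), and Rab27b, which acts with Rab3 in vesicle docking, had one of 0.61 ± 0.15 (adjusted p = 0.0152). The fourth Rab3 isoform, Rab3d, known from exocrine glands and mast cells, had a slope of -0.10 ± 0.12, and its 12 libraries lay between 2.64 and 5.14 TPM.

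Rab33a, a Golgi Rab of neurons and lymphocytes, was listed at 47.8, 15.7 and 21.5 TPM in WT-LPS, 33.2, 6.35 and 12.2 TPM in WT, 40.9, 38.9 and 15.8 TPM in CPEB1-KO-LPS and 27.5, 31.2 and 35.8 TPM in CPEB1-KO. Its lowest library was WT replicate 2 and its highest WT-LPS replicate 1, and its slope was 0.88 ± 0.13 (adjusted p = 0.00201). Rab39b, whose human counterpart is mutated in X-linked intellectual disability, had a slope of 0.63 ± 0.12 (adjusted p = 0.00463). The pair Rab6a and Rab6b, which govern transport from the Golgi to the ER, moved together: Rab6b, the neuronal isoform, had a slope of 0.56 ± 0.11 and the widely expressed Rab6a one of 0.55 ± 0.13. Rab40b, a Rab that works in a ubiquitin ligase, had a slope of 0.65 ± 0.13. Rab2b had one of 0.43 ± 0.12, Rab15 one of 0.32 ± 0.09 and Rab4a one of 0.29 ± 0.09. Rab4a lay just inside the threshold (adjusted p = 0.0474) and Rab5c just outside it (slope -0.36 ± 0.14, adjusted p = 0.0901).

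Slope estimates of several paralogues lay far apart. The slope of Rab9 was 0.25 ± 0.14, beside 0.94 for Rab9b, and that of Rab39 was -0.39 ± 0.17, beside 0.63 for Rab39b. Likewise Rab33b had 0.07 ± 0.13 beside 0.88 for Rab33a, and Rab27a had -0.39 ± 0.12 beside 0.61 for Rab27b. These differences between paralogues were not tested. The Rabs of general membrane traffic, Rab1 (slope 0.14 ± 0.11), Rab7 (0.05 ± 0.12), Rab14 (0.10 ± 0.10) and Rab5a (0.13 ± 0.13), did not pass the threshold in edgeR's test. With the package limma on log2(TPM + 1), slopes passed for Rab1 (0.30, adjusted p = 0.0186), Rab14 (0.25, adjusted p = 0.0399) and Rab5a (0.29, adjusted p = 0.0474). On that scale the median slope of all genes was 0.12, against -0.01 in edgeR.

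**Figure D2:**
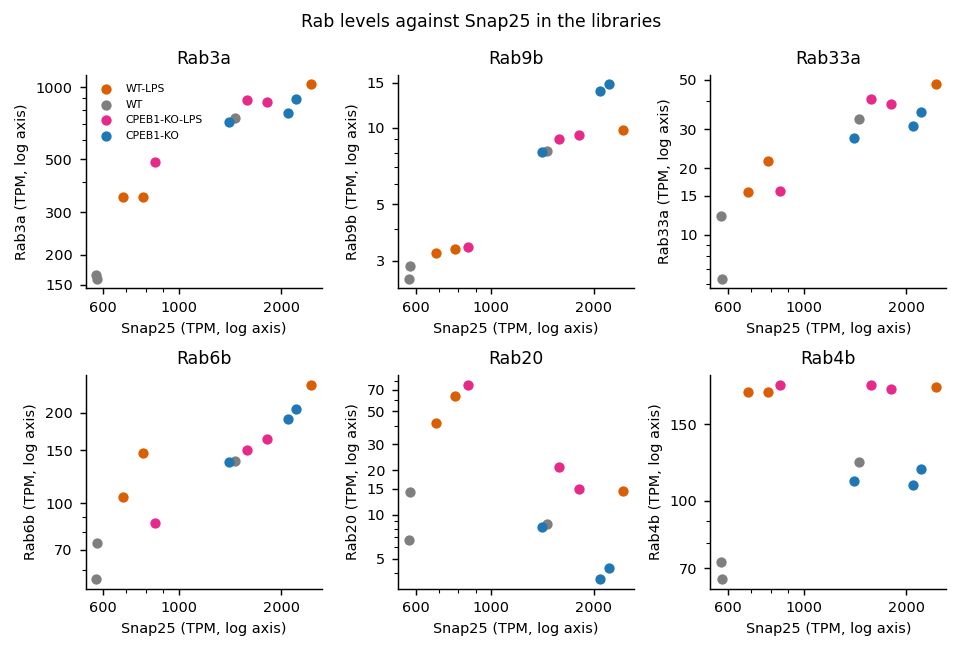
TPM of 6 Rabs (y axis, log scale) against Snap25 TPM (x axis, log scale), 1 point per library, coloured by group. Rab3a, Rab9b, Rab33a and Rab6b are low in the libraries with low Snap25 and high in those with high Snap25, Rab20 is high in LPS libraries with low Snap25, and Rab4b lies between 178 and 185 TPM in the 6 LPS libraries at any Snap25 level.

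The 5 Rabs with a negative slope were Rab20 (-1.24 ± 0.28), Rab8b (-0.61 ± 0.17), Rab43 (-0.56 ± 0.11), Rab29 (-0.48 ± 0.15) and Rab27a (-0.39 ± 0.12). Rab20 and Rab8b, described with LPS below, were the lowest of WT-LPS in replicate 1, and among LPS libraries were highest in those with low Snap25. Rab43, a Golgi Rab, was listed at 19.4, 29.1 and 28.01 TPM in WT-LPS, 11.3, 12.6 and 18.2 TPM in WT, 15.8, 14.95 and 26.4 TPM in CPEB1-KO-LPS and 13.5, 12.7 and 11.8 TPM in CPEB1-KO. In WT-LPS and in CPEB1-KO-LPS its highest libraries were those with low Snap25. The 8 microglia markers with a negative slope ran from -0.47 ± 0.14 (Sall1) to -1.22 ± 0.29 (Siglech), and their part in the Rab slopes was not tested.

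The count of slopes rested on few libraries. WT-LPS replicate 1 and WT replicate 1 held 32.2% and 19.3% of the within-group variation (sum of squares) in log2 Snap25. Without WT-LPS replicate 1, 3 Rabs had a positive slope past the threshold (Rab9b, Rab33a and Rab3a) and 1 a negative one. Without both libraries, which were chosen after the data were seen, 1 positive slope passed (Rab9b, 1.05, adjusted p = 0.0371), while the estimates of the 13 Rabs were above 0, between 0.0017 and 1.05 with a median of 0.55. Negative slopes numbered 2 without WT-LPS replicate 2 or 3 or CPEB1-KO-LPS replicate 2, 3 without CPEB1-KO-LPS replicate 3 or any 1 of the CPEB1-KO libraries, and 8 without WT replicate 3. Over 22 alternative analyses, the negative slope kept its call in 21 for Rab43 and in 20 for Rab20. The call was kept in 11 for Rab8b, in 8 for Rab27a and in 5 for Rab29, and none changed direction. Rab6a lost its call without WT-LPS replicate 2 as well as without WT-LPS replicate 1. The calls of Rab2b, Rab15 and Rab4a were each lost in several single omissions, and with the replicate number as a block 4 positive and 0 negative slopes passed. With the mean of the other 11 neuron markers as the term in place of Snap25, Rab27b, Rab6a, Rab2b and Rab4a lost their positive call.

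LPS, averaged over both genotypes as 6 libraries against 6, changed 10 of the 54 Rabs, with 6 higher and 4 lower, against 29.4% of all genes (14.6% higher and 14.8% lower). Thus a smaller share of the Rabs than of all genes was called. The median log2 difference was 0.11 over the Rabs and -0.02 over all genes. By role, 3 of 9 early endosome Rabs were higher, 2 of 10 recycling Rabs were higher and 1 lower, 1 of 8 late endosome Rabs was higher and 1 lower, and 2 of 14 ER and Golgi Rabs were lower. Of the 8 secretion Rabs and the 5 other Rabs 0 passed in edgeR's quasi-likelihood test, and none of these had an unadjusted p under 0.05. DESeq2 called none of them either.

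Rab20, an early endosome and phagosome Rab of macrophages at chr8:11453518-11478710 (GRCm38, minus strand), was listed at 14.4, 41.5 and 63.4 TPM in WT-LPS, 8.61, 14.1 and 6.72 TPM in WT, 20.9, 14.97 and 75.8 TPM in CPEB1-KO-LPS and 8.25, 3.67 and 4.37 TPM in CPEB1-KO. The 6 LPS libraries lay between 14.4 and 75.8 TPM and the 6 untreated libraries between 3.67 and 14.1 TPM, with no overlap. Its log2 difference was 2.30 ± 0.53 (adjusted p = 0.00566), the largest rise of a Rab. Counts were low, between 12 and 27 in the untreated libraries and between 50 and 232 in the LPS libraries.

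Rab32, which acts at lysosome-related organelles and in defence against intracellular bacteria, was listed at 16.8, 27.9 and 20.2 TPM in WT-LPS, 14, 9.06 and 7.73 TPM in WT, 16.9, 11.7 and 21.6 TPM in CPEB1-KO-LPS and 6.99, 5.53 and 3.69 TPM in CPEB1-KO. The LPS libraries exceeded the untreated ones within each genotype, and over both genotypes WT replicate 1 lay above CPEB1-KO-LPS replicate 2. The log2 difference of Rab32 was 1.22 ± 0.26 (adjusted p = 0.00352).

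Rab4b, a recycling Rab of the early endosome at chr7:27168424-27178896 (GRCm38, minus strand), was listed at 183, 178 and 179 TPM in WT-LPS, 123, 66.1 and 72.2 TPM in WT, 185, 181 and 185 TPM in CPEB1-KO-LPS and 111, 109 and 118 TPM in CPEB1-KO. The 6 LPS libraries were within 178 to 185 TPM, and the untreated libraries were all lower and more spread. The log2 difference of Rab4b was 0.74 ± 0.14 (adjusted p = 0.00169). Its paralogue Rab4a had a log2 difference of 0.40 ± 0.16 (adjusted p = 0.0697).

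Rab12, a recycling Rab that directs the transferrin receptor to lysosomes, was listed at 144, 94.6 and 107 TPM in WT-LPS, 71.7, 47.7 and 44.6 TPM in WT, 119.7, 125 and 106 TPM in CPEB1-KO-LPS and 78.9, 81.9 and 87.98 TPM in CPEB1-KO. The 6 LPS libraries lay above the 6 untreated libraries. The log2 difference of Rab12 was 0.63 ± 0.14 (adjusted p = 0.00416).

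Rab8b, an exocytic Rab, was listed at 29.9, 71.99 and 66.01 TPM in WT-LPS, 21.7, 20.3 and 15.9 TPM in WT, 20.1, 22.4 and 44.9 TPM in CPEB1-KO-LPS and 18.8, 20.4 and 18.2 TPM in CPEB1-KO. It was highest in the LPS libraries with low Snap25 (replicates 2 and 3 of WT-LPS and replicate 3 of CPEB1-KO-LPS), and CPEB1-KO-LPS replicate 1 lay within the range of the untreated libraries. Its log2 difference was 0.95 ± 0.28 (adjusted p = 0.0229). Rab31, which carries cargo between the Golgi and endosomes, was listed at 95.6, 116 and 121 TPM in WT-LPS, 42.3, 69.1 and 39.5 TPM in WT, 73.5, 64.3 and 74.7 TPM in CPEB1-KO-LPS and 40.7, 48.3 and 54.3 TPM in CPEB1-KO. Its untreated WT replicate 2 reached into the range of CPEB1-KO-LPS, and its log2 difference was 0.68 ± 0.21 (adjusted p = 0.026).

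Rab39, which takes part in phagosome acidification, was the Rab with the largest fall. The gene lies at chr9:53684110-53706232 (GRCm38, minus strand). It was listed at 1.22, 2.27 and 1.77 TPM in WT-LPS, 4.66, 4.05 and 4.17 TPM in WT, 0.86, 0.74 and 1.03 TPM in CPEB1-KO-LPS and 3.23, 3.13 and 2.49 TPM in CPEB1-KO, and the 6 LPS libraries lay below the 6 untreated libraries. Its log2 difference was -1.66 ± 0.25 (adjusted p = 0.000364), at counts of 17 to 41 in LPS libraries and 44 to 82 in untreated libraries. Rab30, a Golgi Rab, was listed at 4.78, 2.35 and 4.36 TPM in WT-LPS, 5.54, 6.02 and 6.01 TPM in WT, 4.59, 4.72 and 3.26 TPM in CPEB1-KO-LPS and 6.68, 7.75 and 8.72 TPM in CPEB1-KO. The 6 LPS libraries again lay below the others, and its log2 difference was -0.92 ± 0.21 (adjusted p = 0.00493). Over all genes tested, TPM of the 6 LPS libraries lay above the untreated libraries without overlap for 9.49% and below them for 3.63%. Among the 54 Rabs this held for 3 above (Rab20, Rab4b and Rab12) and 2 below (Rab39 and Rab30).

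Rab11a, the main Rab of recycling endosomes, had a log2 difference of -0.56 ± 0.16 (adjusted p = 0.0162) and was listed at 76.1, 45.7 and 48.4 TPM in WT-LPS, 80.3, 70.8 and 64.4 TPM in WT, 68.5, 83.6 and 48.98 TPM in CPEB1-KO-LPS and 77.3, 96.1 and 98.1 TPM in CPEB1-KO. WT-LPS replicate 1 and CPEB1-KO-LPS replicates 1 and 2 lay within the range of the untreated libraries, so the groups overlapped. Rab29, a Rab that recruits the kinase LRRK2 to membranes, had a log2 difference of -0.73 ± 0.23 and was listed at 4.43, 7.30 and 7.30 TPM in WT-LPS, 10.1, 11.8 and 14.7 TPM in WT, 7.79, 6.30 and 8.59 TPM in CPEB1-KO-LPS and 8.45, 9.80 and 8.51 TPM in CPEB1-KO. WT-LPS lay below WT, while CPEB1-KO-LPS overlapped CPEB1-KO. It lay just inside the threshold (adjusted p = 0.0311), and Rab43 lay just outside it (0.61 ± 0.23, adjusted p = 0.062).

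**Figure D3:**
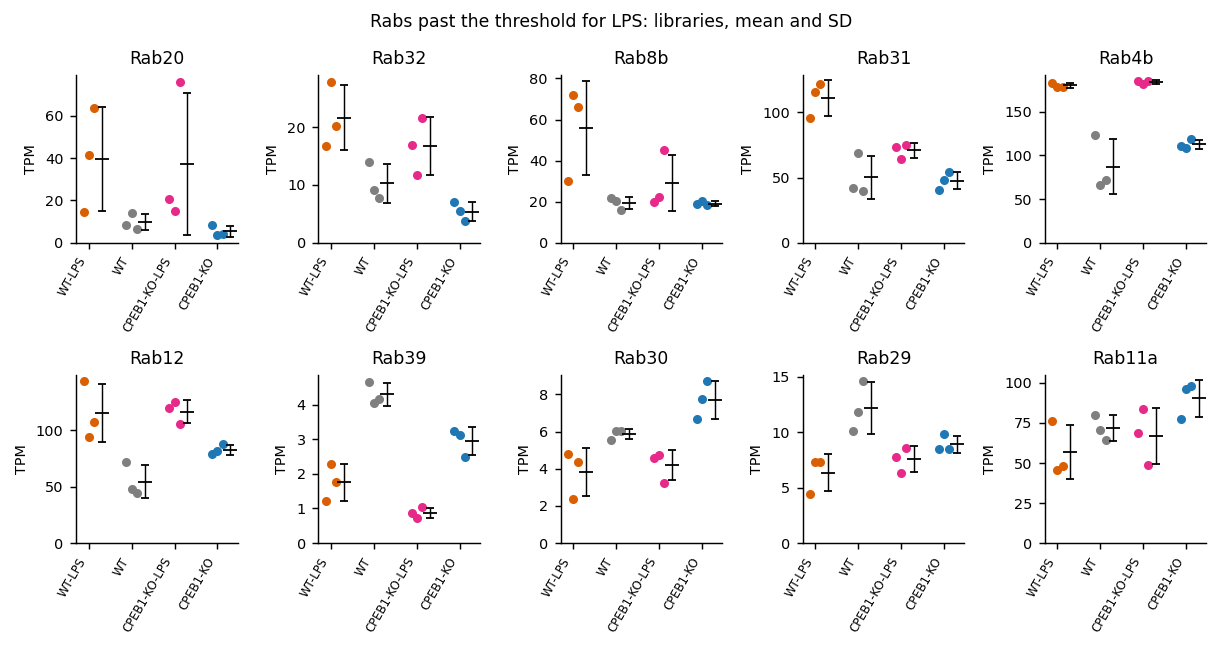
TPM of the 10 Rabs past the threshold for LPS in each library (points) with the group mean and SD (bars, n = 3), each panel on its own axis from 0. Rab20, Rab4b and Rab12 are higher in every LPS library than in any untreated library and Rab39 and Rab30 lower, while the libraries of the other 5 overlap.

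Rab12, Rab20, Rab30, Rab32, Rab39 and Rab4b stayed past the threshold in each of the 22 alternative analyses tried. Rab11a lost its call where the authors' TPM were tested with limma (adjusted p up to 0.107). Rab8b lost it without WT-LPS replicate 2 or 3, WT replicate 3, CPEB1-KO-LPS replicate 3 or CPEB1-KO replicate 3 (adjusted p up to 0.0618), and Rab31 without WT-LPS replicate 2 or 3, WT replicate 3, CPEB1-KO-LPS replicate 3 or CPEB1-KO replicate 1 or 2 (up to 0.062). Rab29 lost it in 10 alternatives, 9 of which left out a single library (up to 0.093). With log2 Snap25 in the model, 8 Rabs were higher and 5 lower after LPS: Rab43 (0.58 ± 0.13) and Rab4a (0.39 ± 0.11) joined those that rose, and Rab9b (-0.45 ± 0.14) those that fell. Without the term their estimates were 0.61 ± 0.23, 0.40 ± 0.16 and -0.40 ± 0.34. All of them had passed for the Snap25 slope, so the term lowers their spread by construction and these added calls are no separate support.

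Cell type markers also differed with LPS. Of the 10 microglia markers 7 were lower, 4 of 8 monocyte markers were higher and 1 lower, with summed levels of 266 to 533 TPM in WT-LPS against 45.5 to 70.5 TPM in WT and 115 to 186 TPM in CPEB1-KO-LPS against 22.04 to 96.4 TPM in CPEB1-KO. Of the 9 endothelial and mural markers 3 were higher and 1 lower, and the 7 choroid plexus markers, 6 of 10 oligodendrocyte markers and 3 of 4 tested erythroid markers were lower. Choroid plexus markers summed to 1130 to 2307 TPM in WT-LPS against 4443 to 7786 TPM in WT, and to 2523 to 3726 TPM in CPEB1-KO-LPS against 7171 to 9169 TPM in CPEB1-KO. Of the 12 neuron markers 0 passed in edgeR's test, 1 had an unadjusted p under 0.05, and their median log2 difference was 0.11. Of the remaining lists, 1 of 8 neutrophil, 4 of 10 lymphocyte and 2 of 6 border macrophage markers were lower, and 1 of 8 astrocyte markers was higher. The erythroid and border macrophage markers had unlike values in the genotypes. In WT-LPS against WT 4 of 4 erythroid markers were lower (median -2.86), whereas in CPEB1-KO-LPS against CPEB1-KO 0 of 4 passed, 0 had an unadjusted p under 0.05 and the median was 0.03. CPEB1-KO-LPS replicate 3 stood apart from its group, with an erythroid sum of 61141 TPM against 7051 and 11851 TPM in the other CPEB1-KO-LPS libraries. The erythroid sums were 41663 to 66991 TPM in WT, 27877 to 37849 TPM in CPEB1-KO and 6544 to 10887 TPM in WT-LPS. Its microglia marker sum was 2868 TPM, against 1205 and 719 TPM in replicates 1 and 2. CPEB1-KO-LPS replicate 3 was also the highest library for Rab20. Border macrophage markers had medians of -1.62 in WT-LPS against WT and 0.16 in CPEB1-KO-LPS against CPEB1-KO. The interaction is the LPS response in the knockout minus that in wild type. In edgeR's test of it, 0 of 6 border macrophage and 0 of 4 erythroid markers passed. Unadjusted p was under 0.05 for 4 of 6 and 4 of 4 (medians of 2.175 and 2.90), against 15.5% of all genes. Without CPEB1-KO-LPS replicate 3 the log2 difference of Rab20 was 1.65 ± 0.40 for LPS averaged over genotypes (adjusted p = 0.00948) and 1.66 ± 0.60 for CPEB1-KO-LPS against CPEB1-KO (adjusted p = 0.154). The part of these other cells in the LPS response of the Rabs was not tested.

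**Figure D4:**
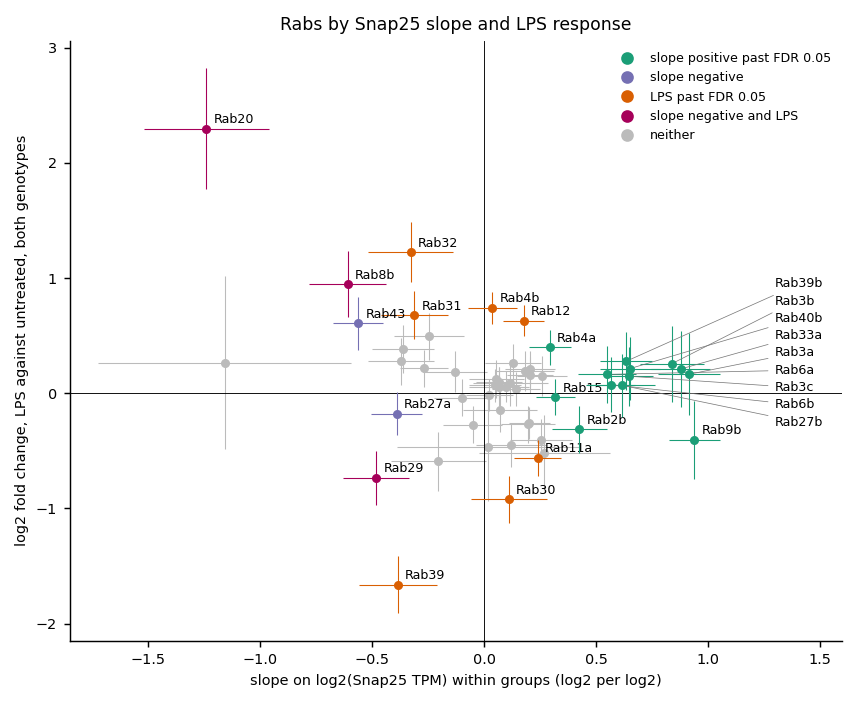
Slope on log2(Snap25 TPM) within groups (x axis) against the log2 difference of LPS over untreated libraries (y axis) for the 54 tested Rabs, with SE bars, coloured by which test passed. The 13 Rabs with a positive slope lie between -0.40 and 0.40 for LPS, and Rab20, Rab8b and Rab29 passed both tests with a negative slope.

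Taking both tests, 13 Rabs passed for a positive slope and not for LPS, 7 for LPS and not for the slope (Rab4b, Rab12, Rab31, Rab32, Rab39, Rab30 and Rab11a), 3 for a negative slope and LPS (Rab20, Rab8b and Rab29), 2 for a negative slope alone (Rab43 and Rab27a) and 29 for neither. The 13 Rabs had log2 differences for LPS between -0.40 (Rab9b) and 0.40 (Rab4a), with a median of 0.16. A p that misses the threshold does not show that a Rab was unaffected. These sets also shifted with the fit. By limma on log2(TPM + 1), Rab12 (0.33, adjusted p = 0.0093) and Rab11a (0.38, adjusted p = 0.0085) passed for a positive slope. There the median slope of all genes was 0.12. Rab31 passed for a negative slope without WT replicate 3 (-0.37, adjusted p = 0.0498). So did Rab32 without replicate 1 of WT and of WT-LPS (-1.17, adjusted p = 0.0377).

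Promoters were compared for 5 Rabs that represent these sets: Rab9b for the Snap25 slope, Rab20 and Rab4b for those higher after LPS, and Rab39 and Rab11a for those lower. Each window runs from 250 bases before to 50 bases after the transcription start in RefSeq and is given 5′ to 3′ on the strand of the gene. Capitals mark matches to the motifs searched, on either strand.

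Rab9b promoter, GRCm38.p6 chrX:136868507-136868806, minus strand: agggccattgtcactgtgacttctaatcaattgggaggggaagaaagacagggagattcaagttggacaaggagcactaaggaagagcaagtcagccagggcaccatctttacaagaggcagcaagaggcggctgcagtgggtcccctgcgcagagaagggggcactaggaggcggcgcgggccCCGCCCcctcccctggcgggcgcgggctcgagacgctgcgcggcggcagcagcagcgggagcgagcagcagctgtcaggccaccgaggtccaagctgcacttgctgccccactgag
Rab20 promoter, GRCm38.p6 chr8:11478591-11478890, minus strand: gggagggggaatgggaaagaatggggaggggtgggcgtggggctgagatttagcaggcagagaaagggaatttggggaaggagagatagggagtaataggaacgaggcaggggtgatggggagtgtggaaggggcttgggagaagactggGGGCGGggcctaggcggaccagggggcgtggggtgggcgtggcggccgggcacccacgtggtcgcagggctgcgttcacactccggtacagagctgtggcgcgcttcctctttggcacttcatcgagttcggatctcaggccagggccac
Rab4b promoter, GRCm38.p6 chr7:27178834-27179133, minus strand: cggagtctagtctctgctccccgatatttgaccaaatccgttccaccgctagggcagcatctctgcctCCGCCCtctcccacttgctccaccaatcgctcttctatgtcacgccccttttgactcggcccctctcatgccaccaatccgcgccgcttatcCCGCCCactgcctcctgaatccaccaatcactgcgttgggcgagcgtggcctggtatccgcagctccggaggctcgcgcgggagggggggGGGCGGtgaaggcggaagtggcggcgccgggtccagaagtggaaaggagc
Rab39 promoter, GRCm38.p6 chr9:53706183-53706482, minus strand: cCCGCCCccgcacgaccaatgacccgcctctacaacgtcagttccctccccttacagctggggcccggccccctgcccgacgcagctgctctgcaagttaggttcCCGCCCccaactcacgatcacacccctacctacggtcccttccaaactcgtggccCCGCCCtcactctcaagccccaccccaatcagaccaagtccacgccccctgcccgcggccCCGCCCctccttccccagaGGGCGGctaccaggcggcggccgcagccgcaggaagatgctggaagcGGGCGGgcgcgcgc
Rab11a promoter, GRCm38.p6 chr9:64737707-64738006, minus strand: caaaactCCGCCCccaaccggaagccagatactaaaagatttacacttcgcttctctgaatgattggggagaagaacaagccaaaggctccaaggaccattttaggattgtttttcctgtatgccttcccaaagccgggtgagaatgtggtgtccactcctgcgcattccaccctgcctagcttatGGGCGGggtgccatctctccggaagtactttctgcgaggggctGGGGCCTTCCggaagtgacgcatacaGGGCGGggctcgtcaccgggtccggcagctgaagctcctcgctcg

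Of the 58 Rabs, 47 had a promoter in the RefSeq table, as 59 windows among 32851. The capitals in Rab9b, Rab20, Rab4b and Rab39 are GC boxes (GGGCGG), with 1 match in Rab9b, 1 in Rab20, 3 in Rab4b and 6 in Rab39. A GC box was held by 35 of the 47 Rabs, against 35.7% of all windows and 38.2% of all genes in the table. Rab11a held 3 GC boxes and a match to the NF-kB consensus, a 10-base motif of the inflammatory transcription factor NF-kB, starting at base 230 of its window. The NF-kB consensus was found in 3 Rabs (Rab11a, Rab15 and Rab28), against 9.55% of genes in the table (8.46% of windows), and in none of the 6 Rabs that were higher after LPS, all of which had a window. The core of the interferon-stimulated response element was found in Rab19, against 3.99% of genes (3.44% of windows), and the cyclic AMP response element (TGACGTCA) in Rab25 and Rab5a, against 2.03% of genes (1.79% of windows). The consensus of RE1, the site of a repressor of neuronal genes, was found in 0 of the 47 Rabs, 11 of which had a positive Snap25 slope, against 0.0777% of genes (0.0639% of windows). A missing match says only that these letters are not in the window.

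In WT-LPS against WT alone, 3 Rabs were higher (Rab12, Rab4b and Rab8b) and 6 lower (Rab39, Rab29, Rab30, Rab11a, Rab24 and Rab13), against 12.4% of all genes higher and 14.9% lower. Of these, Rab8b had the largest rise, 1.19 ± 0.40 (adjusted p = 0.0424), and Rab39 the largest fall, -1.63 ± 0.34 (adjusted p = 0.00453). Rab24, an autophagy Rab, was listed at 57.7, 44.1 and 54 TPM in WT-LPS, against 83.5, 40.7 and 102 TPM in WT. WT replicate 2 was the lowest of these libraries, so the groups overlapped in TPM, and the log2 difference on scaled counts was -0.85 ± 0.27 (adjusted p = 0.0319). Rab13, a Rab of cell junctions, was listed at 5.23, 4.56 and 8.23 TPM in WT-LPS, against 9.34, 11.5 and 8.62 TPM in WT. The WT-LPS libraries were all lower, with a log2 difference of -1.10 ± 0.36 (adjusted p = 0.0385). Every WT-LPS library was deeper (10.5 M to 12.9 M expected counts) than every WT library (5.02 M to 9.49 M). LPS and depth thus ran together in this comparison, and the part of depth was not tested. TPM of WT-LPS lay above WT without overlap for 22 of the 54 Rabs and 27.4% of all genes, and below WT for 4 Rabs and 10.8% of all genes.

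These counts moved with single libraries. Higher Rabs numbered 0 without WT replicate 3, 1 without WT-LPS replicate 2, and 5 without WT replicate 2 or without CPEB1-KO-LPS replicate 3, which is part of the estimate of spread. Without WT replicate 1, and likewise without replicate 1 of both groups, Rab3a (0.70 ± 0.23, adjusted p = 0.0443 without both) and Rab3b (0.84 ± 0.28, adjusted p = 0.0484) were called higher, so that their lack of an LPS call rested on those libraries. Lower Rabs numbered 2 without WT-LPS replicate 2 and 3 without WT-LPS replicate 1 or 3 or WT replicate 2 or 3. Same-numbered libraries of WT-LPS and WT deviated together, although no label states a pairing and some libraries of unlike number in other groups did so as strongly. With the replicate number as a block in a fit of WT-LPS and WT, 5 Rabs were higher. This added Rab20 (1.47 ± 0.46, adjusted p = 0.0332) and Rab31 (0.85 ± 0.26, adjusted p = 0.0271), while Rab13 and Rab30 no longer passed. The authors' TPM tested with limma gave 17 higher and 2 lower. On that scale the median of all genes shifted by 0.28 (log2), against -0.03 on scaled counts, and the median of the Rabs by 0.56.

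In CPEB1-KO-LPS against CPEB1-KO, 3 Rabs were higher (Rab20, Rab32 and Rab4b) and 1 lower (Rab39), against 6.22% of all genes called (4.1% higher and 2.12% lower). Rab20 had a log2 difference of 2.96 ± 0.76 (adjusted p = 0.0359) and Rab32 one of 1.70 ± 0.37 (adjusted p = 0.0155). Rab4b had one of 0.76 ± 0.20 (adjusted p = 0.0364), and Rab39 one of -1.70 ± 0.36 (adjusted p = 0.0123). TPM of CPEB1-KO-LPS lay above CPEB1-KO without overlap for 7 Rabs and 16.2% of all genes, and below it for 4 Rabs and 15% of all genes. Without CPEB1-KO-LPS replicate 3, CPEB1-KO replicate 2 or CPEB1-KO replicate 3 the number of higher Rabs was 0, and without CPEB1-KO replicate 1 it was 1. The fall of Rab39 lost its call without CPEB1-KO-LPS replicate 1 or 2 or CPEB1-KO replicate 2.

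The LPS responses of the genotypes were compared directly by the interaction, the response in the knockout minus that in wild type. In edgeR's quasi-likelihood test 0 of 54 Rabs passed, against 0.00654% of all genes, and 1 Rab (Rab29) had an unadjusted p under 0.05, against 15.5% of all genes. DESeq2 also called 0 Rabs. For Rab20 the interaction was 1.33 ± 1.03 and for Rab32 it was 0.95 ± 0.51, and neither passed, although the estimates were larger in the knockout. The responses of Rab4b (0.76 in the knockout and 0.72 in wild type) and Rab39 (-1.70 and -1.63) were close, with interactions of 0.04 ± 0.28 and -0.07 ± 0.46.

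Between genotypes without LPS, 0 of 54 Rabs passed in CPEB1-KO against WT, against 0.0327% of all genes. In the same edgeR test 9 Rabs had an unadjusted p under 0.05, against 18.6% of all genes. DESeq2 called 3.39% of all genes and 1 Rab, Rab32 (-1.27 ± 0.40, adjusted p = 0.0493). Rab32 was listed at 6.99, 5.53 and 3.69 TPM in CPEB1-KO, against 14, 9.06 and 7.73 TPM in WT, without overlap, and had a log2 difference of -1.24 ± 0.37 (adjusted p = 0.169) in edgeR. Rab39b was listed at 13.8, 22.6 and 21.7 TPM in CPEB1-KO, against 9.37, 5.92 and 6.78 TPM in WT. It too showed no overlap, with a log2 difference of 1.08 ± 0.36 (adjusted p = 0.189). TPM of CPEB1-KO lay above WT without overlap for 20 of the 54 Rabs and 26.7% of all genes, and below WT for 4 Rabs and 5.09% of all genes.

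The 13 Rabs with a positive Snap25 slope had higher estimates in CPEB1-KO than in WT in 13 of 13 cases, with log2 differences of 0.47 to 1.14 and a median of 0.67, none past the threshold. For the other 41 tested Rabs the median was -0.01, with 20 above 0, and for all genes it was -0.03. The 11 neuron markers other than Snap25 were above 0 in 11 of 11 cases, with a median of 0.76. The largest estimate was that of Rab9b, 1.14 ± 0.48, and Rab3a had 0.93 ± 0.51. Adding the Snap25 term lowers such estimates by construction, since these Rabs were chosen by that slope, so values with it are not given here. The 10 microglia markers went the other way, with 0 of 10 above 0 and a median of -1.12. WT replicates 2 and 3, the libraries with the lowest Snap25, also held the fewest counts of all libraries. The share of neuronal and of microglial RNA, library depth and the genotype cannot be told apart here.

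**Figure D5:**
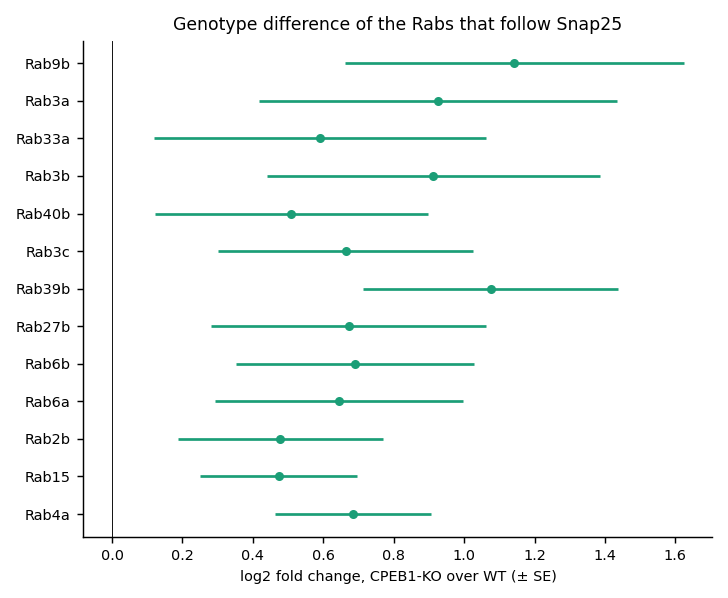
Log2 fold change of CPEB1-KO over WT (x axis) for the 13 Rabs with a positive Snap25 slope, 1 row per Rab, as the estimate (circles) and its SE (bars). The estimates lie between 0.47 and 1.14, and none passed the threshold.

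The comparisons with WT moved with WT replicate 1, the WT library with high Snap25 and the most counts. Without it 8.31% of all genes and 3 Rabs passed in CPEB1-KO against WT: Rab3a (1.87 ± 0.43, adjusted p = 0.0259) and Rab3b (1.81 ± 0.42, adjusted p = 0.0262) were higher and Rab34 (-1.19 ± 0.26, adjusted p = 0.0199) was lower. The same omission called Rab3a (1.35 ± 0.42, adjusted p = 0.0321) and Rab3b (1.38 ± 0.42, adjusted p = 0.0281) higher in WT-LPS against WT, where 28.9% of all genes passed. In CPEB1-KO-LPS against WT-LPS, 0 of 54 Rabs passed in edgeR's test, against 0.00654% of all genes, 3 had an unadjusted p under 0.05 (Rab37, Rab39 and Rab24) against 10.8% of all genes, and DESeq2 called 0. There the 13 Rabs had a median log2 difference of 0.26, with 10 above 0, and the 11 neuron markers one of 0.08, with 7 above 0.

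Genes that control Rabs were counted from 4 lists with 111 members, of which 110 were tested. After LPS, averaged over genotypes, 12 were higher and 15 lower, near or below the 14.6% and 14.8% of all genes. By list, 3 of 32 GEFs were higher and 7 lower, 6 of 33 GAPs were higher and 2 lower, 3 of 37 effectors and kinases were higher and 5 lower, and 1 of 8 genes of the prenylation and GDI cycle was lower. The smallest adjusted p belonged to Dennd1c, a GEF of Rab35, at -1.49 ± 0.21 (adjusted p = 0.000218). Mon1a, part of the GEF of Rab7, followed at -1.20 ± 0.18, and Hps4, part of the GEF of Rab32 and Rab38, at -1.61 ± 0.24. Dennd3, a GEF of Rab12, had a log2 difference of 1.71 ± 0.27 (adjusted p = 0.000526), while Rilpl1, which binds phosphorylated Rab8 and Rab10, was at -0.82 ± 0.14 and Bicd2, a dynein adaptor recruited by Rab6, was lower too (adjusted p = 0.00171). Thus Rab12 and its GEF Dennd3 were both higher after LPS, whereas Rab32 was higher and Hps4 lower. With Mon1a and Dennd1c lower, Rab7 (0.12 ± 0.16) and Rab35 (0.09 ± 0.13) did not pass. Relations between Rabs and their GEFs were not tested.

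Along Snap25, 7 of these 110 genes had a positive and 12 a negative slope past the threshold, close to the 9.21% and 8.24% of all genes. The smallest p were those of Lrrk1, a kinase of Rab7, at -0.97 ± 0.17, and Tbc1d24, a synaptic protein with a GAP-like domain, at 0.43 ± 0.08. Hps4 had a slope of -0.58 ± 0.13, Mical1 one of -0.67 ± 0.15 and Rab11fip2, an effector of Rab11, one of 0.42 ± 0.09.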

How the data were processed

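RNA was sequenced from 12 libraries, 1 animal each, 3 per group. Per the submitters' processing notes, the tools were cutadapt and RSEM with the mm10 genome. The sources used here name no aligner, version or strand setting. The authors deposited RSEM expected counts and TPM (a depth-scaled level corrected for transcript length) per gene. Symbols that read as dates (27) were replaced through their transcript accessions where these matched. These estimated counts, after rounding to whole numbers, went into edgeR 4.0.16 (R 4.3.3) with TMM scaling, filterByExpr (15295 genes kept) and a quasi-likelihood fit of 4 group means. Adjusted p-values are by Benjamini and Hochberg over all genes of a comparison. A separate fit added log2(Snap25 TPM), with 7 residual degrees of freedom. DESeq2 1.42.0, limma 3.58.1 on log2(TPM + 1), other filters and scalings, a Snap25 term, a replicate block and single omissions were alternatives. Permutation tests used scipy 1.17.1. The fits were also run on counts simulated from the same kind of model, with effects set on the tested terms. Such a run cannot check whether the model suits these libraries.

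Rabs named are those past an adjusted p of 0.05 in a comparison or slope and the 3 with the highest mean TPM per role, plus Snap25, Cpeb1 and the 6 regulators with the smallest p. One regulator is not reported here. Other Rabs, such as paralogues, were named after their values were seen. Members, lists and tests were chosen with earlier results of these data known. Levels of genes are compared in TPM only. Same-numbered libraries of WT-LPS and WT deviated together (correlations of 0.149 to 0.378). Those of CPEB1-KO-LPS and CPEB1-KO had correlations of -0.138 to 0.0875, so a separate fit with the number as a block covered WT-LPS and WT only. Libraries of unlike number also correlated, with 0.377 for WT-LPS 1 and CPEB1-KO 3 and 0.141 for WT-LPS 3 and WT 2. No label states what the number marks, so these correlations do not establish a pairing. The depth of 5.02 M to 13.5 M counts sets the precision of low Rabs.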

Additional observations from a re-analysis of the deposited data

How the results depend on the processing

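The 41 results for single Rabs were recomputed under 920 alternatives in all, and 706 kept direction and call, 214 kept direction without the call and 0 changed direction. For LPS averaged over genotypes, TPM with limma gave 10 higher Rabs with each pseudocount and with no filter, and single omissions gave 4 to 8 higher and 3 to 4 lower Rabs and 3421 to 4939 genes in all, against 4496. For WT-LPS against WT, higher Rabs numbered 17, 17 and 16 by TPM with limma (pseudocount 1, pseudocount 0.1, no filter), 1 in a fit of the 2 groups only, 6 with the Snap25 term, 5 without replicate 1 of both groups, 5 in the fit of the 2 groups with the replicate block, and 0 to 5 in single omissions. Lower Rabs numbered 2 by TPM with limma in each setting, 1 in the 2 groups only and 2 to 7 in single omissions. All genes numbered 4185, 2592 in the 2 groups only and 2714 to 4724 in single omissions. For CPEB1-KO-LPS against CPEB1-KO, higher Rabs numbered 1 with the replicate block, 1 by TPM with no filter and 0 to 3 in single omissions. Lower Rabs numbered 2 by DESeq2 and 0 to 1 in single omissions, and all genes numbered 952, 1655 by DESeq2 and 355 to 1132 in single omissions. For CPEB1-KO against WT, DESeq2 called 1 Rab and single omissions 0 to 3. All genes numbered 5, and 11 with no filter, 3 with the replicate block, 519 by DESeq2, 9 by TPM with limma (pseudocount 1), 8 with the Snap25 term and 2 to 1292 in single omissions. For CPEB1-KO-LPS against WT-LPS, Rabs numbered 0 in each alternative run, and all genes numbered 1, 3 with no filter, 90 by DESeq2, 4, 9 and 5 by TPM with limma, 7 with the Snap25 term and 1 to 11 in single omissions. For the interaction, Rabs numbered 0 in each alternative run, and all genes numbered 1, 0 with RLE size factors, 301 by DESeq2, 2, 0 and 0 by TPM with limma, 0 with the Snap25 term and 0 to 441 in single omissions. Positive Snap25 slopes numbered 4 with the replicate block, 24, 24 and 23 by TPM with limma, 1 without replicate 1 of WT and WT-LPS, and 3 to 13 in single omissions. Negative slopes numbered 0 with the replicate block, 8 by DESeq2, 2 by TPM with limma in each setting, 2 with the other 11 neuron markers as the term, and 1 to 8 in single omissions. Slopes over all genes numbered 2668, 461 with the replicate block, 765 without both replicates 1 and 293 to 3377 in single omissions. The causes were not tested. On the TPM scale the median log2 difference of all genes was 0.26 for CPEB1-KO against WT and -0.30 for the interaction, so TPM counts are relative to a shifted centre. Depth limits Rabs with few counts, such as Rab20 and Rab39, and 4 Rabs could not be tested.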
